A study of Mus musculus with 4 samples.

Results

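The transcripts described here are noncoding RNAs named as pseudogenes, with a gene symbol that ends in -ps, alone or followed by a number. They were taken from the study's supplementary lists of lncRNAs that passed a fold limit at 24, 72 or 96 h against 0 h, pooled to 1 entry per probe, so they were chosen by measured differences between these arrays. A transcript was kept when the scanner software, Agilent Feature Extraction, marked its probe as well above background in 1 scan or more, which is called detected below. All 59 probes with such a symbol were detected somewhere, so none fell just outside the rule, and they stand for 58 genes, because Gpr137b-ps has 2 probes. They are 59 of 3937 distinct probes in the lists, and 59 of 60804 probes in the deposited table, of which 43139 were detected. The lists that could be read hold 1639, 1887 and 1943 upward entries for 24, 72 and 96 h but 302, 60 and 0 downward ones, so transcripts that were lower are under-represented by the way they were collected, and none of the directions below is evidence about pseudogenes as a class.

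RNA came from RAW264.7, a macrophage line of the mouse whose cells fuse into osteoclasts in culture. Induction was with 100 ng/mL RANKL, the cytokine that drives osteoclast formation, and 50 ng/mL M-CSF, a survival factor of the monocyte lineage, and the cells at 0 h had received neither and are the uninduced baseline. The labels call the cells monocytes at 0 h, pre-osteoclasts after 24 h, mature osteoclasts after 72 h and activated osteoclasts after 96 h. There was 1 Agilent 1-colour lncRNA array per time point, so no p-value, standard deviation or confidence interval of a change exists, and all comparisons with 0 h share the same 0 h array. Slide 1 held the arrays of 0 h and 72 h and slide 2 those of 24 h and 96 h, so slide and time of induction cannot be told apart when 24 h or 96 h is set against 0 h or 72 h. As a cell line, RAW264.7 is a model of osteoclast formation outside the animal. Of the osteoclast and macrophage markers looked for, a probe could be named only for a noncoding transcript of Mmp9, a gene whose protein is a matrix protease made by osteoclasts, and this transcript read 8.90, 7.42, 6.35 and 8.06 (log2) from 0 h to 96 h, which says nothing of the Mmp9 mRNA.

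A pseudogene is a copy of a gene that has lost the ability to make the parent's protein. Processed pseudogenes arise when a spliced mRNA is copied back into DNA and inserted elsewhere, which is common for the short, abundant mRNAs of ribosomal proteins, while unprocessed ones arise by duplication, as in the large clusters of olfactory and vomeronasal receptor genes. Some are transcribed, and since their RNA resembles that of the parent or of other family members, a hybridisation probe may bind more than 1 transcript. Olfactory receptors sense odours in the nose, and vomeronasal receptors of classes 1 and 2 sense pheromones in the vomeronasal organ.

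By parent, 5 probes belonged to ribosomal protein genes, 12 to olfactory receptors, 13 to vomeronasal receptors of class 1, 11 to vomeronasal receptors of class 2, and 18 probes of 17 genes to other parents. RefSeq lists 55 of the 58 genes under the same symbol, 43 as pseudogenes and 12 as transcribed pseudogenes, and Gpr144-ps, Scgb1b23-ps and Vmn2r-ps159 were not matched. The lists' coordinates overlapped the RefSeq genes in the mouse build GRCm38 for 54 of these 55, the exception being Pisd-ps3, which the lists place on an unplaced scaffold, and coordinates of transcripts below are those of the lists in this build. The array design classes 55 probes as intergenic, Rpl31-ps24 and Mnd1-ps as intronic antisense, Vmn2r-ps159 as exon sense-overlapping and Vmn2r-ps11 as intron sense-overlapping.

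The probes, each 60 bases long, set which transcripts the array could tell apart, which was examined here only in part. Those that bear on the results are printed 5′ to 3′ as the study's lists give them. The Rps25-ps1 probe was identical in 60 of 60 bases to the start of the parent gene Rps25 on the + strand at chr9:44407695-44407754 of GRCm38.p6, with 19 bases before the RefSeq start of Rps25 and 41 from it onwards. The first 30 bases are shown, with capitals from the Rps25 start.

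Rps25-ps1: cctttttttccgacatcttAGCGAGGCTGC

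RNA of Rps25 that carries this sequence and RNA of Rps25-ps1 cannot be told apart by the probe. Over 32544 RefSeq windows of 300 bases around gene starts, searched on both strands without gaps, 3 of the 59 probes reached 48 identical bases, and 56 did not. The Bambi-ps1 probe reached that limit in 38 windows (0.117% of them), the best being the window of Trim30b with 56 identical bases, and the Olfr75-ps1 probe did so in 2 windows, the best being that of Olfr380 with 53. In the next lines capitals mark the bases that differ from those windows.

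Bambi-ps1: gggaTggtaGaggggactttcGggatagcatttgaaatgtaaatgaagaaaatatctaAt

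Olfr75-ps1: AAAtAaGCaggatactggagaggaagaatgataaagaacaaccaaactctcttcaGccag

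Only gene starts could be searched, so the comparison says nothing about the rest of the parents' transcripts. Whether RNA of the parents also gave the signals of Rpl31-ps4, Rpl31-ps24, Hspe1-ps2 and M6pr-ps was not tested. When each pseudogene probe was set against all 3937 listed probes, the probes of Vmn2r-ps73 and Vmn2r-ps83 were the only pair found to overlap by at least 30 bases at 80% identity or more, and they shared 40 of 46 bases. Capitals mark the bases that differ within this overlap.

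Vmn2r-ps73: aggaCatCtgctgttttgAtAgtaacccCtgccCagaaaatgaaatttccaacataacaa

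Vmn2r-ps83: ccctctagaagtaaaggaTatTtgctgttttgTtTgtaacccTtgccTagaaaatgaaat

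The remaining sequences belong to both Rpl31 copies, Hspe1-ps2, Olfr260-ps1 and both Gpr137b-ps probes, whose values are described in full below, and they are printed in lower case throughout. For 1 of the Gpr137b-ps probes the array design itself names a transcript of the parent Gpr137b as cross-hybridising.

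Rpl31-ps4: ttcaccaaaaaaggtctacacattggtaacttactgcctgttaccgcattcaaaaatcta

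Rpl31-ps24: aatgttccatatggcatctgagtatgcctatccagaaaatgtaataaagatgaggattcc

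Hspe1-ps2: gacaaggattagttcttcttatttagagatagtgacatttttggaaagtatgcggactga

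Olfr260-ps1: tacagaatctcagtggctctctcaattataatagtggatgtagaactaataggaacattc

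Gpr137b-ps, transcript NR_003568, cross-hybridisation named: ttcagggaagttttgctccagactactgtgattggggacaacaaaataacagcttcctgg

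Gpr137b-ps, transcript ENSMUST00000181570, none named: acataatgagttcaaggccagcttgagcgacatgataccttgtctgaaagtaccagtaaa

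All levels below are the authors' quantile normalized signals on the log2 scale, and a change is a difference of 2 such values. Where 4 values stand in a row, they belong to the 0, 24, 72 and 96 h arrays in this order, and 3 changes or folds in a row are those of 24, 72 and 96 h against 0 h. Of the pseudogene probes 23, 36, 34 and 46 were detected, and the shares over all probes deposited were 62.3%, 58.8%, 59.8% and 66.8%. Detected on all 4 arrays were 18 of the 59 (30.5%), beside 40.7% of the other listed probes and 75.7% of the 43139. Detected on a single array were 21 of the 59 (35.6%), beside 34.2% and 10.0%. By family, 3 of 5 ribosomal protein probes, 7 of 18 probes of other parents and 8 of 36 receptor probes were detected on all 4 arrays. The error that Feature Extraction models for a single spot was between 10% and 22.1% of the signal over the 139 detected spots, which is at most 0.36 on the log2 scale, and had a median of 12.2%. Over the other 97 spots it had a median of 49.3% and reached 101%. This error covers the spot alone and not the spread between cultures, which these arrays cannot give.

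**Figure D1:**
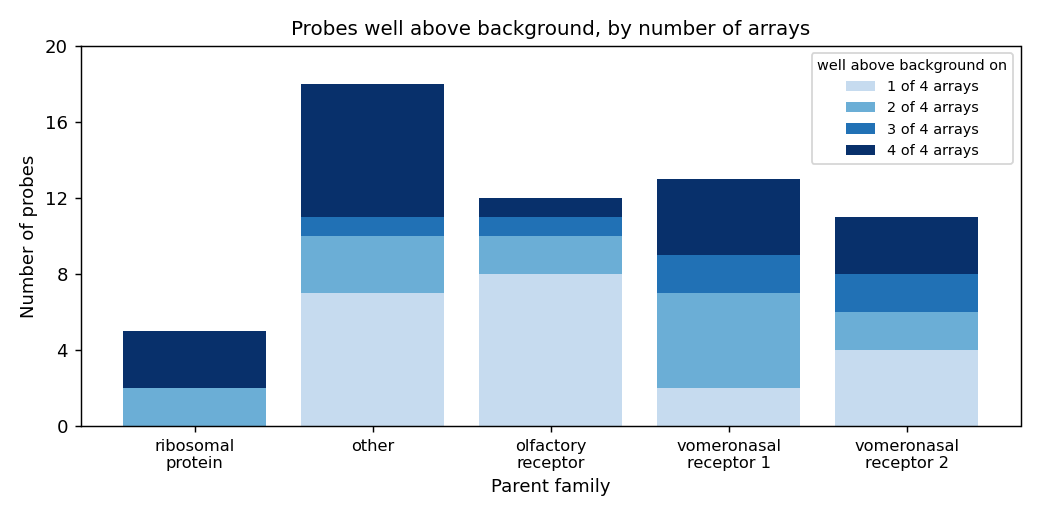
Number of pseudogene probes in each parent family (horizontal axis), divided by the number of arrays of 4 on which the probe was detected, that is, well above background (shades). The ribosomal protein family has 3 of 5 probes on all 4 arrays, and the olfactory receptor family 1 of 12.

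A probe entered a comparison when either array detected it. A value on an array that did not detect the probe was replaced, if smaller, by the lowest value of any probe detected there (4.81, 5.17, 5.15 and 4.41), and the fold is then a lower bound, written as "at least". An undetected value above that lowest value was kept, and the fold is then a ratio to an undetected signal, not a bound. At 0 h this held for Vmn2r-ps73 and Vmn1r-ps8. A bound under 2-fold does not pass the limit, but it does not show that the difference was smaller than 2-fold. Since the lists were made from the same comparisons, the counts against 0 h are a description of what was collected. At 24 h, 12 of 40 pseudogene probes exceeded their 0 h value by 2-fold or more and 4 were lower by as much, where the shares over all probes were 3.4% and 6.14%. The 72 h array gave 10 of 37 higher and 1 lower, with 4.35% and 5.31% over all probes, and the 96 h array 23 of 47 higher and 5 lower, with 5.72% and 8.42%. The median changes of the pseudogene probes were 0.51, 0.59 and 0.96, beside 0.10, 0.05 and 0.05 over all probes. Of the higher probes, 8 of 12 at 24 h, 7 of 10 at 72 h and 10 of 23 at 96 h were not detected by the 0 h array, while all lower ones were detected on both arrays. Those undetected at 0 h gave bounds, except Vmn2r-ps73 at each time and Vmn1r-ps8 at 96 h. Without that replacement 20 of 40, 17 of 37 and 32 of 47 were higher, beside 1763 of 39289, 2276 of 39555 and 3692 of 41936 of all probes. With probes limited to those both arrays detected, 4 of 19, 3 of 20 and 13 of 22 were, beside 760 of 34386, 1327 of 34683 and 1835 of 36568. RNA was taken from whole cultures, so fewer cells with a transcript and less of it in each cell cannot be told apart.

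Past the limit against 0 h at 1 or more later time points were 38 of the 59 probes. This count describes what was collected. No share over all probes was computed for it or for the patterns over all 3 later time points. Higher at all 3 later time points were Rps25-ps1, Vmn1r-ps46, Vmn1r-ps29 and Vmn2r-ps73, and no probe was lower at all 3. After the normexp background correction, chosen after seeing the data, the changes of Vmn1r-ps46 were 0.40, 0.72 and 0.79, so that it passed the limit at none of the 3, while the others still did at each. Of the 36 probes that the 0 h array did not detect, Vmn1r-ps29, Vmn2r-ps73 and Vmn2r-ps34 were detected on all 3 later arrays.

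The ribosomal protein pseudogenes did not share a direction. Rps25-ps1, a copy of the gene for a protein of the small ribosomal subunit, lies at chr6:145266327-145266825. Its probe read 10.17, 13.86, 13.38 and 13.81. The 0 h array stood below all later arrays, which lay within 0.48 of each other, and the level was higher by 12.8-fold, 9.21-fold and 12.4-fold. These changes of 3.68, 3.20 and 3.63 were the largest increases against 0 h among the pseudogene probes detected on both arrays of the comparison. The increase at 72 h lay within 1 slide. Because of the complete match printed above, these values describe the probe, and whether Rps25 or its pseudogene gave the signal was not tested.

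Both copies of Rpl31, which encodes a protein of the large ribosomal subunit, were lower on slide 2. Rpl31-ps4, at chr16:87549062-87549451, read 13.08, 10.52, 13.19 and 11.001. The 24 h and 96 h values were 5.91-fold and 4.24-fold lower than at 0 h, while the change at 72 h was 0.10. Rpl31-ps24, at chr1:64934402-64934780, read 8.65, 6.71, 9.24 and 5.98. It was 3.85-fold lower at 24 h and 6.37-fold lower at 96 h, and 0.59 higher on the log2 scale at 72 h. In both, each slide 1 array exceeded each slide 2 array, and the 24 h and 96 h arrays differed from each other by 0.48 for Rpl31-ps4 and by 0.73 for Rpl31-ps24.

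Rpl26-ps2, a copy of the gene for another large subunit protein, and Fau-ps2, a copy of the gene that encodes ribosomal protein S30 fused to a ubiquitin-like protein, were near the lower end of the signal. Rpl26-ps2 read 4.39, 4.996, 5.67 and 5.57, and Fau-ps2 read 4.53, 4.47, 5.56 and 4.82, with neither detected at 0 h or 24 h. The bounds against 0 h, at least 1.82-fold for Rpl26-ps2 and at least 1.68-fold for Fau-ps2 at 72 h, did not reach the limit. A noncoding transcript of Rpl26 on the array read 6.48, 7.72, 5.87 and 7.88, which says nothing of the Rpl26 mRNA. No probe could be named for Rps25, Rpl31, Fau or Hspe1.

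**Figure D2:**
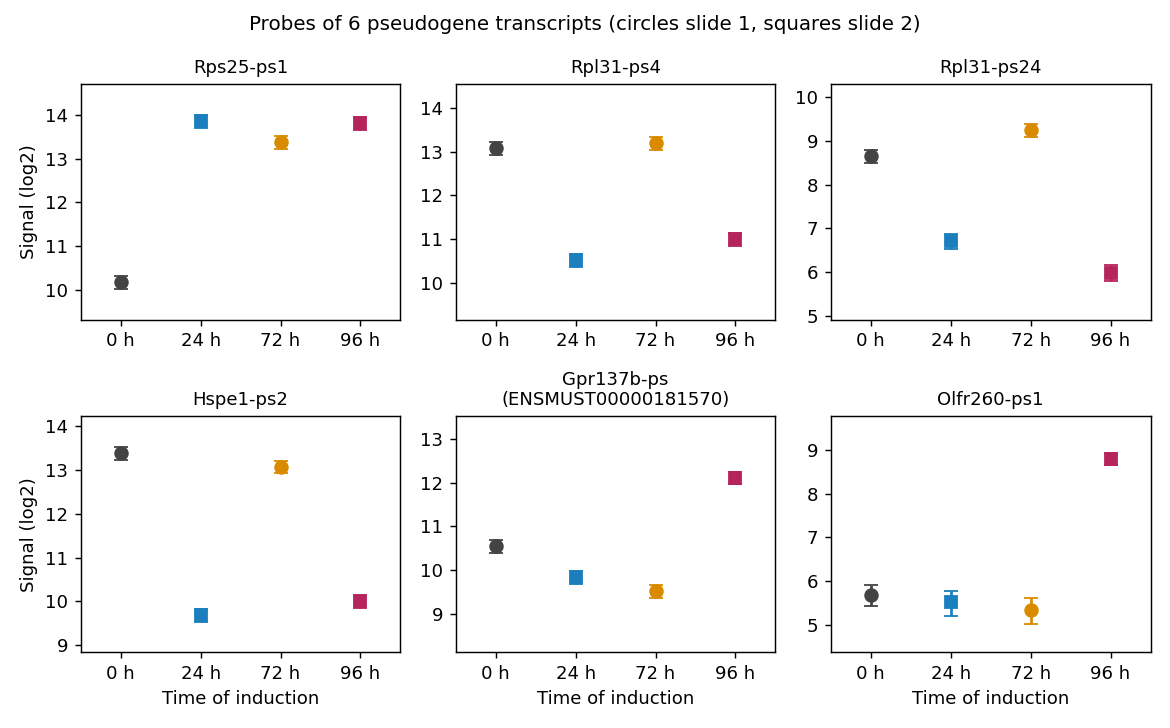
Quantile normalized log2 signal at each time of induction for 6 probes, with circles for slide 1 and squares for slide 2. Bars are the spot error modelled by Feature Extraction, not a spread between replicates, and each panel spans the same height. Rpl31-ps4, Rpl31-ps24 and Hspe1-ps2 are low on both slide 2 arrays, Rps25-ps1 is low at 0 h alone, and Gpr137b-ps and Olfr260-ps1 are highest at 96 h.

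Among the other parents, Hspe1-ps2 had the largest decreases of all 59 probes at 24 h and 96 h. Its parent encodes the small subunit of the mitochondrial chaperonin, and the copy lies at chr12:81399812-81400123. The probe read 13.39, 9.68, 13.08 and 10.01. It was 13.1-fold lower at 24 h and 10.4-fold lower at 96 h, with a change of -0.31 at 72 h. As for the Rpl31 copies, both slide 1 arrays stood above both slide 2 arrays, and the nearest values of the slides, slide 2 minus slide 1, differed by -3.08. For Rpl31-ps4 this difference was -2.08 and for Rpl31-ps24 -1.95. No other pseudogene probe was lower on both slide 2 arrays by 2-fold, and of the 43139 detected probes 2.74% were. Olfr396-ps1 and Gpr144-ps, which neither slide 1 array detected, were higher on both slide 2 arrays by at least 1.41 and at least 1.42 on the log2 scale, as were 0.631% of the detected probes by 2-fold. Whether slide or time of induction set these values cannot be told apart.

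M6pr-ps, a copy of the gene for the cation-dependent mannose 6-phosphate receptor, which carries enzymes to lysosomes, was detected on all arrays with 17.31, 16.31, 16.95 and 16.36. It was 2.01-fold lower at 24 h, just past the limit, and its later changes of -0.36 and -0.96 were within it, although the latter became -1.29 with scaling to the 75th percentile and -1.33 with scaling to the median.

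Bambi-ps1, a copy of the gene for a decoy receptor of the TGF-beta family, read 14.86, 14.21, 15.93 and 13.61. Relative to 0 h it was 2.10-fold higher at 72 h and 2.37-fold lower at 96 h, and between these arrays it was 4.98-fold lower. It was 1 of 3 probes that were higher at 72 h and detected on both arrays, with Rps25-ps1 and Vmn1r-ps46. Its probe shared at least 48 of 60 bases with 38 windows around gene starts, as given above. These values therefore describe the probe, and whether other transcripts gave part of the signal was not tested.

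Gpr137b-ps derives from the gene for a membrane protein of lysosomes and was the only member with more than 1 probe, both on chromosome 13 between 12614065 and 12650395. The probe of NR_003568, for which the parent's transcript is named as cross-hybridising, read 14.63, 14.05, 13.96 and 15.69. The probe of ENSMUST00000181570, for which none is named, read 10.55, 9.84, 9.53 and 12.12. That none is named does not show that this probe binds 1 transcript alone, which was not tested. Its best window around a gene start shared 40 of 60 bases. Both Gpr137b-ps probes were highest at 96 h and lower at 24 h and 72 h than at 0 h. The latter was lowest at 72 h under all scalings. The former changed by -0.08 from 24 h to 72 h, less than the error of either spot, and its lowest array became that of 24 h with scaling to the 75th percentile (-0.62 at 24 h and -0.45 at 72 h against 0 h), with scaling to the median (-0.64 and -0.44) and with cyclic loess (-0.69 and -0.67). At 96 h the former was 2.07-fold and the latter 2.97-fold higher than at 0 h, and against 24 h, on the same slide, they were 3.11-fold and 4.85-fold higher. The former change of 1.05 became 0.82 with scaling to the 75th percentile and 0.78 with scaling to the median, below the limit. The latter was also the only pseudogene probe lower at 72 h, with a change of -1.02, which became -0.96 and -0.95 under those scalings and passed the limit no longer.

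Of the other probes in this group detected on all arrays, Defb44-ps, from a beta-defensin gene of antimicrobial peptides, read 6.18, 7.14, 6.58 and 7.48 and was 2.47-fold higher at 96 h. Mageb8-ps, from the melanoma antigen family, read 5.31, 6.55, 6.20 and 5.94 and was 2.36-fold higher at 24 h. Speer6-ps1, from a family expressed in the testis, was detected at 0 h with 5.90 and at 96 h with 4.45, which is 2.75-fold lower. Pisd-ps3, whose parent encodes the mitochondrial phosphatidylserine decarboxylase, read 5.65, 4.53, 6.58 and 5.15, was not detected at 24 h, and was 2.68-fold lower at 96 h than at 72 h. A noncoding transcript of Pisd read 6.54, 6.99, 6.32 and 7.57, highest at 96 h.

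The remaining members of this group were seen on 1 or 2 arrays. Gpr144-ps, from an adhesion G protein-coupled receptor, read 3.92, 6.58, 3.59 and 6.65 and was detected on slide 2, where it exceeded 0 h by at least 3.42-fold and at least 3.59-fold. C4bp-ps1, from a complement regulator, was detected at 72 h alone with 6.75, which is at least 3.86-fold above 0 h. Scgb1b23-ps, from the secretoglobins, was likewise detected at 72 h alone with 6.19, which is at least 2.60-fold above 0 h. Mnd1-ps, from a gene of meiotic recombination, read 5.30 at 24 h and 5.63 at 96 h and exceeded 0 h by at least 1.41-fold and at least 1.77-fold, bounds under the limit. The latter, 0.82 on the log2 scale, became 1.03 with scaling to the 75th percentile. The others were detected on 1 array each, not that of 0 h, and their bounds against 0 h did not reach the limit. Mcpt-ps1, from the mast cell proteases, read 5.19 at 72 h, and Ear-ps10, from the eosinophil-associated ribonucleases, 5.34 at 72 h. Psg-ps1, from the pregnancy-specific glycoproteins, read 5.43 at 24 h, Ces2d-ps, from the carboxylesterases, 5.00 at 96 h, and Ifna-ps1, from the type I interferons, 4.72 at 96 h. Without the floor, the changes of Mcpt-ps1, Ear-ps10, Psg-ps1 and Ifna-ps1 on those arrays were 2.39, 2.73, 2.33 and 1.03, against 0 h values that were not detected, and that of Ces2d-ps was 0.86.

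After the normexp correction, several calls of this group passed the limit no longer. At 24 h the change of Mageb8-ps was 0.46, that of M6pr-ps -0.97 and that of Gpr144-ps 0.87. At 96 h the change of Defb44-ps was 0.96, that of Speer6-ps1 -0.34 and that of Gpr144-ps 0.91. At 72 h the change of Scgb1b23-ps was 0.69 and that of the ENSMUST00000181570 probe of Gpr137b-ps -0.95. Speer6-ps1 at 72 h, with a change of -0.75 against an array that did not detect it, gave -1.06 with scaling to the 75th percentile and -1.05 with scaling to the median.

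**Figure D3:**
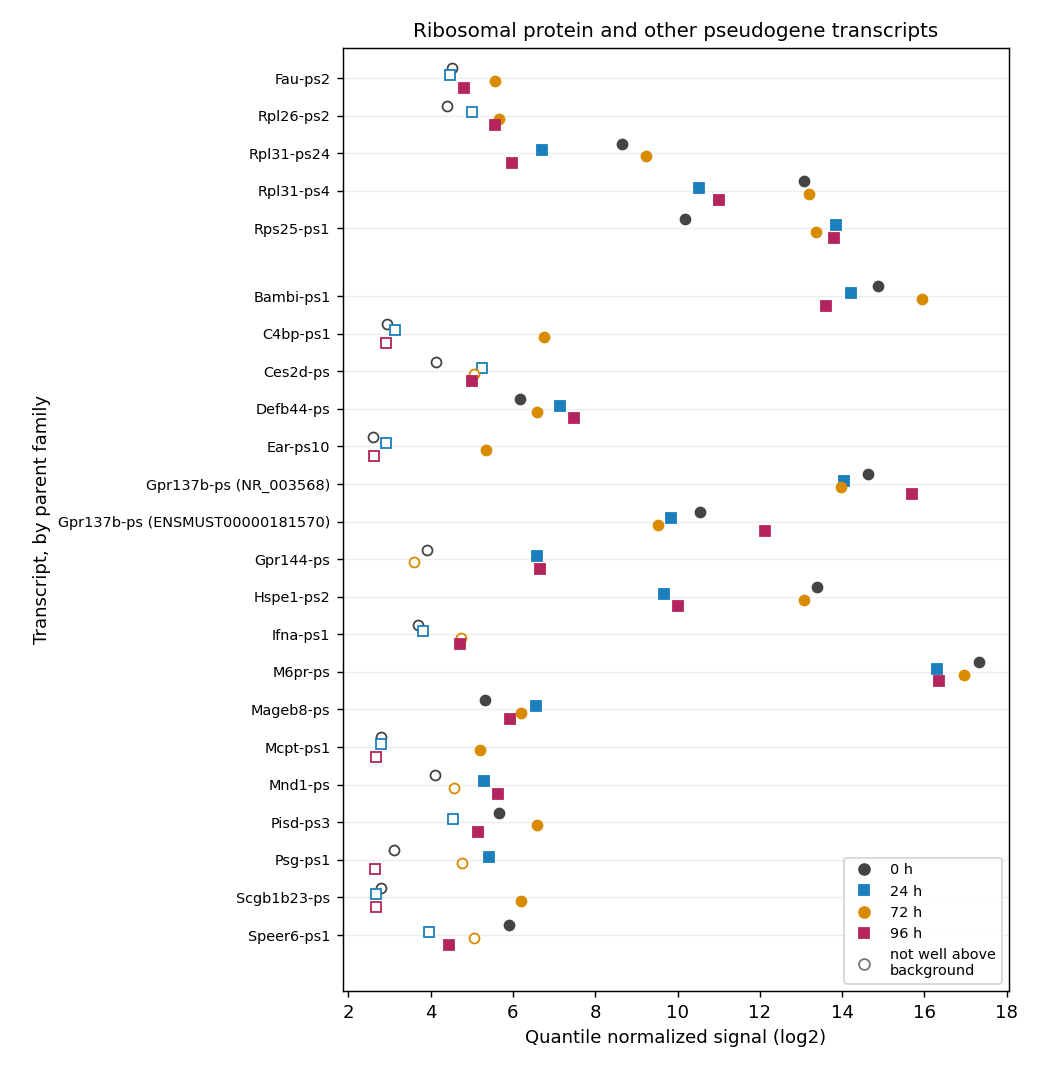
Quantile normalized log2 signal (horizontal axis) of the 5 ribosomal protein probes and the 18 probes of other parents, 1 row per probe and 1 symbol per array. Open symbols mark arrays that did not detect the probe. M6pr-ps, Bambi-ps1, both Gpr137b-ps probes, Hspe1-ps2, Rpl31-ps4, Rpl31-ps24, Rps25-ps1, Defb44-ps and Mageb8-ps carry filled symbols on all 4 arrays.

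Receptor pseudogenes made up 36 of the 59 probes. At 24 h, 9 of 25 were higher than at 0 h by 2-fold or more, beside 3.4% of all probes, at 72 h 6 of 19, beside 4.35%, and at 96 h 18 of 29, beside 5.72%. Against 0 h, 0 were lower by 2-fold at the later time points, beside 6.14%, 5.31% and 8.42% of all probes. The lists that could be read held few downward entries and none for 96 h, so both counts mainly describe how the transcripts were collected. The count of 0 lower also depends on the floor. Vmn2r-ps69 was detected at 0 h alone, with 5.11, and without the floor its changes were -1.12 at 24 h and -1.41 at 96 h, while with the floor it was at least 1.62-fold lower at 96 h. At 72 h, Vmn2r-ps62 was lower by 2-fold under 3 alternatives (scaling to the median, cyclic loess and scaling to the 75th percentile), so that the count of 0 lower became 1, and in the authors' values the change of this probe was -0.997, just inside the limit. At 96 h the count of higher receptor probes was 21 with scaling to the 75th percentile, 20 with scaling to the median and 15 with cyclic loess. Of all 41987 probes that entered, 2746, 2498 and 1824 were higher under these scalings. After the normexp correction 5, 3 and 7 receptor probes were higher at 24, 72 and 96 h, beside 446 of 39339, 736 of 39603 and 1004 of 41987 of all probes. The receptor probes were Vmn1r-ps29 and Vmn2r-ps73 at each time, with Olfr396-ps1, Vmn2r-ps70 and Vmn2r-ps77 at 24 h, Olfr1069-ps1 at 72 h, and Olfr260-ps1, Olfr396-ps1, Vmn1r-ps113, Olfr1003-ps1 and Olfr1078-ps1 at 96 h. All other receptor calls against 0 h fell below the limit. Detected receptor probes numbered 11, 23, 17 and 28 on the arrays, and 14 of 36 were detected on a single array. Their detected values spanned 4.49 to 9.54.

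Among the olfactory receptor pseudogenes, Olfr260-ps1 at chr7:103699576-103700754 was the only probe detected on all arrays. It read 5.69, 5.52, 5.35 and 8.80. The first 3 arrays lay within 0.35 of each other and the 96 h array stood apart, 8.63-fold above 0 h and, within slide 2, 9.70-fold above 24 h. After the normexp correction the change from 0 h to 96 h was 1.87 instead of 3.11. Olfr1169-ps1 read 5.23, 6.17, 5.15 and 6.69, escaped detection at 72 h, and ended 2.75-fold above its 0 h value. Olfr396-ps1 read 2.65, 7.50, 3.59 and 6.57 and was detected on both slide 2 arrays and on neither slide 1 array. On these arrays it exceeded 0 h by at least 6.45-fold and then at least 3.39-fold. Olfr306-ps1, detected on the same arrays, read 3.99, 5.54, 3.91 and 5.77. It exceeded 0 h by at least 1.67-fold and at least 1.95-fold, and the latter bound, 0.96 on the log2 scale, became 1.16 with scaling to the 75th percentile and 1.12 with scaling to the median. Without the floor the changes were 1.55 and 1.77.

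The other 8 olfactory receptor pseudogenes were detected on 1 array. At 96 h alone these were Olfr1078-ps1 with 7.54, or at least 6.67-fold above 0 h, Olfr1003-ps1 with 6.60, or at least 3.48-fold above, and Olfr590-ps1, Olfr75-ps1 and Olfr997-ps1 with 5.23, 4.93 and 4.49. At 24 h alone they were Olfr621-ps1 with 6.004, or at least 2.30-fold above 0 h, and Olfr660-ps1 with 5.32. Olfr1069-ps1 was seen at 72 h alone with 7.21, or at least 5.28-fold above 0 h. The brightest of the single-array signals before normalization was that of Olfr1078-ps1, with an intensity of 261 and an error of 27.1, and among all 21 single-array members the dimmest was Mcpt-ps1, with 26.5 and an error of 5.81.

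Of the class 1 vomeronasal receptor pseudogenes, 4 were detected on all arrays. Vmn1r-ps46 at chr7:5966268-5967216 read 5.14, 6.20, 6.65 and 6.87 and exceeded 0 h by 2.10-fold, 2.87-fold and 3.33-fold, although no time point passed the limit after the normexp correction, as given above. Vmn1r-ps49 read 8.46, 8.31, 8.63 and 9.54, and Vmn1r-ps113 read 7.93, 8.35, 7.90 and 9.24. Vmn1r-ps50 read 6.43, 6.80, 6.03 and 7.60. In each of the latter 3 the 96 h array was the highest, 2.11-fold, 2.48-fold and 2.25-fold above 0 h, and the other arrays lay within the limit of each other. The change of Vmn1r-ps49 at 96 h was 0.98 with scaling to the median and 0.97 with cyclic loess, below the limit.

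Vmn1r-ps29 read 2.65, 6.91, 7.70 and 6.63 and was not detected at 0 h, which it later exceeded by at least 4.29-fold, at least 7.43-fold and at least 3.55-fold. The study lists quantitative PCR primers for this transcript, ENSMUST00000174862, among the lncRNAs it measured by that method. The PCR values were not examined here. Vmn1r-ps67 read 5.30, 4.88, 6.14 and 6.53, was not detected at 24 h, and ended 2.34-fold above 0 h. Vmn1r-ps108 and Vmn1r-ps27 were detected from 72 h on, the former with 5.90 and 6.11, the latter with 5.52 and 5.72. At 96 h the bound of Vmn1r-ps27 was 0.91 on the log2 scale, and 1.105 with scaling to the 75th percentile and 1.07 with scaling to the median. Vmn1r-ps8, Vmn1r-ps17 and Vmn1r-ps135 were detected on the slide 2 arrays alone, with 24 h values of 5.47, 5.40 and 5.25 and 96 h values of 5.91, 4.84 and 4.56. Vmn1r190-ps was detected at 24 h alone with 5.88, and Vmn1r-ps106 at 72 h alone with 5.48. Of these, Vmn1r190-ps exceeded 0 h by at least 2.10-fold, and Vmn1r-ps108 did so by at least 2.14-fold and then at least 2.47-fold. Vmn1r-ps8 did so by 2.14-fold at 96 h, a ratio to an undetected 0 h value that was not replaced. The 72 h change of Vmn1r-ps108 and the 96 h change of Vmn1r-ps8 fell below the limit under other scalings, to as little as 0.82 and 0.93.

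Of the class 2 vomeronasal receptor pseudogenes, 3 were detected on all arrays. Vmn2r-ps83 read 6.19, 7.75, 6.48 and 6.39, with the 24 h array 2.95-fold above 0 h and 2.56-fold above 96 h on its own slide. Vmn2r-ps159 read 5.66, 5.22, 6.58 and 6.86 and was 2.30-fold higher at 96 h. Vmn2r-ps62 read 6.24, 6.57, 5.24 and 7.30, lowest at 72 h and highest at 96 h, and ended 2.08-fold above 0 h, a change of 1.05 that was 0.92 with cyclic loess. Vmn2r-ps73, whose probe resembles that of Vmn2r-ps83, read 4.88, 6.94, 7.59 and 7.14 and was not detected at 0 h. It exceeded 0 h by 4.15-fold, 6.52-fold and 4.77-fold. These are ratios to an undetected 0 h value that was not replaced, and not bounds. The 2 probes differed in their order of arrays, since Vmn2r-ps73 was highest at 72 h and Vmn2r-ps83 at 24 h.

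The other members of class 2 were detected on fewer arrays. Vmn2r-ps34 read 3.99, 5.31, 5.19 and 5.73, and at 96 h its bound was 1.90-fold, a log2 difference of 0.93 that became 1.12 with scaling to the 75th percentile and 1.09 with scaling to the median. Vmn2r-ps70 and Vmn2r-ps132 were detected on slide 2 alone, the former with 6.93 and 6.11, the latter with 5.74 and 6.36. Vmn2r-ps70 exceeded 0 h by at least 4.37-fold and then at least 2.47-fold, and Vmn2r-ps132 did so by at least 2.94-fold at 96 h. Vmn2r-ps77 was detected at 24 h alone with 6.84, or at least 4.10-fold above 0 h, and Vmn2r-ps82 at 72 h alone with 6.07, or at least 2.41-fold above. The change of Vmn2r-ps82 at 72 h was 1.27, and 0.996 with scaling to the 75th percentile. Vmn2r-ps11 was detected at 96 h alone with 5.54, and Vmn2r-ps69 at 0 h alone. A noncoding transcript of Vmn2r7, a gene whose span overlaps that of Vmn2r-ps11, was detected at 24 h alone with 6.03, not on the array that detected Vmn2r-ps11.

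**Figure D4:**
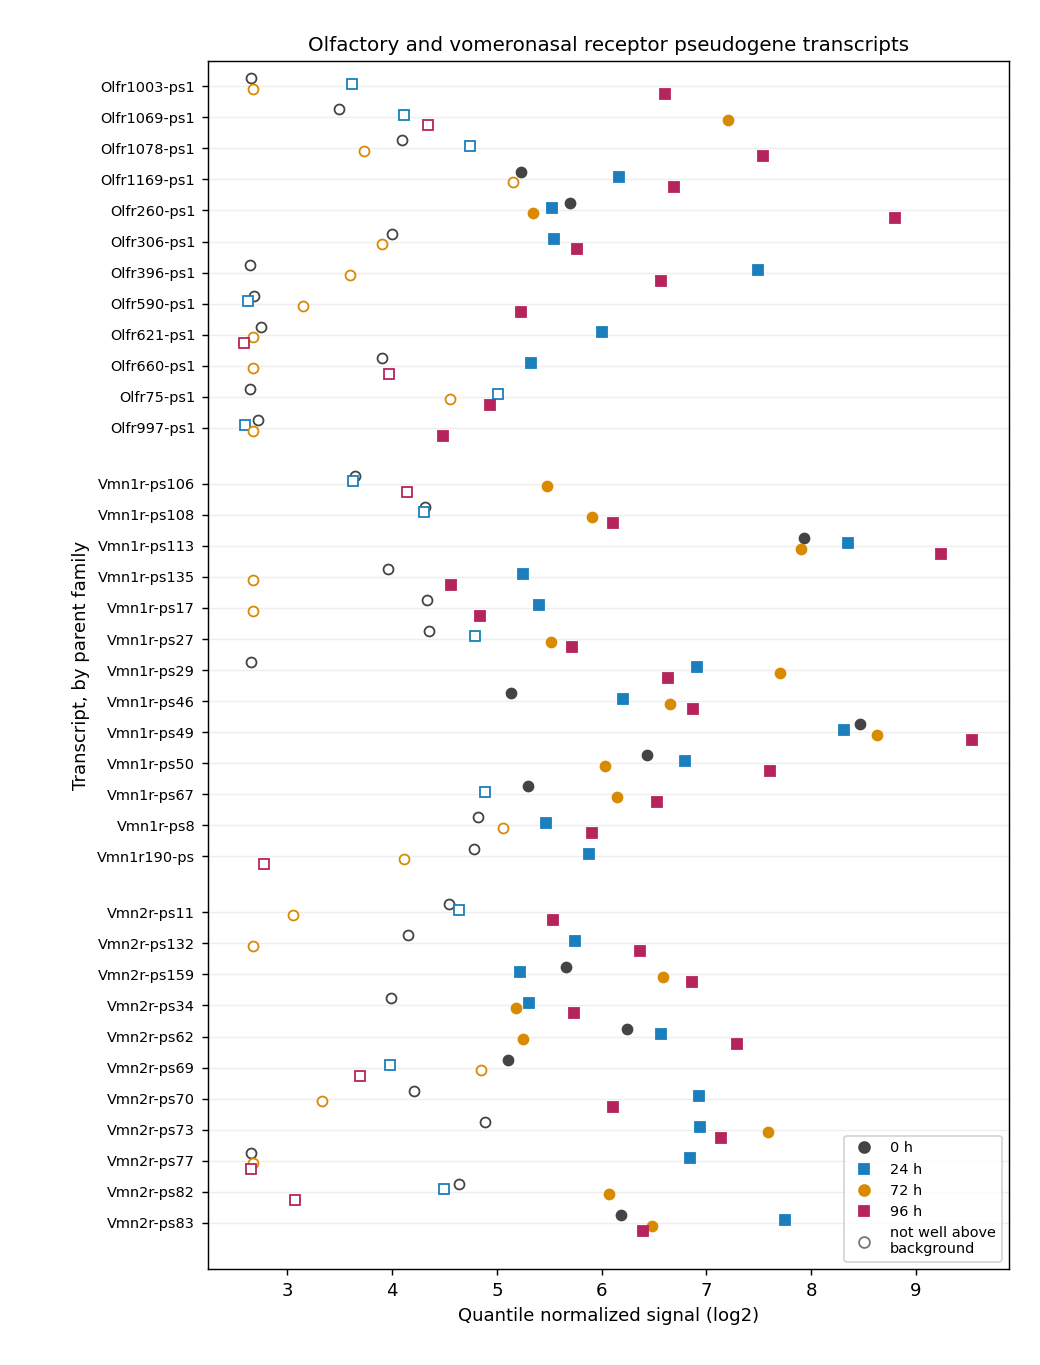
Quantile normalized log2 signal (horizontal axis) of the 36 olfactory and vomeronasal receptor pseudogene probes, 1 row per probe and 1 symbol per array. Open symbols mark arrays that did not detect the probe, as with 25 of the 36 at 0 h. The 8 probes with filled symbols on all 4 arrays include Olfr260-ps1, which stands apart at 96 h.

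Many of the receptor pseudogenes lie near each other in the genome, although the genes between them were not examined. With gaps of at most 1 Mb, 29 of the 59 probes fell into 8 runs, and 18 probes lay on chromosome 7. The longest run, chr7:84810428-86353719, held Vmn2r-ps62, Vmn2r-ps69, Vmn2r-ps70, Vmn2r-ps73, Vmn2r-ps77, Vmn2r-ps82, Vmn2r-ps83 and Olfr306-ps1. Of these 8 probes 3, 6, 4 and 5 were detected on the arrays, and the array with the highest value differed among them. Vmn2r-ps70, Vmn2r-ps77 and Vmn2r-ps83 were highest at 24 h, Vmn2r-ps73 and Vmn2r-ps82 at 72 h, Vmn2r-ps62 and Olfr306-ps1 at 96 h, and Vmn2r-ps69 at 0 h. In the run chr13:22144441-23269474, with Vmn1r190-ps, Vmn1r-ps106, Vmn1r-ps108, Vmn1r-ps113 and Vmn1r-ps135, Vmn1r-ps113 alone was detected on all arrays. In chr2:85585104-86530427, Olfr997-ps1, Olfr1003-ps1 and Olfr1078-ps1 were detected at 96 h alone and Olfr1069-ps1 at 72 h alone. In 2 of the 8 runs all members were detected on the same arrays. These were chr7:10549557-10605138, with Vmn1r-ps49 and Vmn1r-ps50 on all 4 arrays, and chr6:57188507-58116630, with Vmn1r-ps8 and Vmn1r-ps17 at 24 h and 96 h alone. In the other 6 runs they were not.

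Comparisons between the later time points were not used to collect the transcripts, although they reuse arrays that were. The counts are still shaped by the collection, so the shares over all probes are no test of them. The probes higher at 96 h than at 24 h had all been listed as up at 96 h and not at 24 h. Those lower at 96 h than at 24 h had all been listed as up at 24 h and not at 96 h. Within slide 2, 8 of 51 pseudogene probes exceeded their 24 h value by 2-fold or more at 96 h and 5 were lower, beside 5.33% and 6.51% of all probes. The higher ones detected on both arrays were Olfr260-ps1, both Gpr137b-ps probes, Vmn2r-ps159 with a 3.11-fold change and Vmn1r-ps49 with a 2.34-fold change, and Vmn2r-ps83 was the lower one. Olfr1078-ps1 was at least 5.19-fold and Olfr1003-ps1 at least 2.71-fold higher, while Vmn2r-ps77 was at least 5.39-fold lower. Between 72 h and 24 h, across slides, 9 of 49 were higher at 72 h and 7 were lower, beside 8.32% and 8.2% of all probes. The largest increases among probes detected on both arrays were those of Hspe1-ps2, 10.6-fold, Rpl31-ps4, 6.35-fold, and Rpl31-ps24, 5.78-fold, each of which read within 0.59 of its 0 h value at 72 h. Bambi-ps1 was 3.30-fold and Vmn2r-ps159 2.57-fold higher, and Vmn2r-ps62 and Vmn2r-ps83 were 2.50-fold and 2.41-fold lower. Between 96 h and 72 h, also across slides, 12 of 53 were higher at 96 h and 11 were lower, beside 10.9% and 12.9%. Olfr260-ps1 was 10.97-fold, the Gpr137b-ps probe of ENSMUST00000181570 6.03-fold and Vmn2r-ps62 4.15-fold higher. Rpl31-ps24 was 9.57-fold, Hspe1-ps2 8.43-fold and Bambi-ps1 4.98-fold lower. The counts between later time points were not repeated under other scalings. With normexp, Vmn2r-ps159 changed by -0.08, 0.48 and 0.63, Vmn2r-ps83 by 0.79, 0.16 and 0.11, and Vmn2r-ps62 by 0.18, -0.47 and 0.61. From 24 h to 72 h none of these then passed the limit, nor did Vmn2r-ps159 and Vmn2r-ps83 from 24 h to 96 h. The other changes named here for probes detected on both arrays still did. In these 3 comparisons receptor pseudogenes were found in both directions, with 6 of 32 higher and 4 lower from 24 h to 96 h, 2 of 29 higher and 6 lower from 24 h to 72 h, and 9 of 31 higher and 4 lower from 72 h to 96 h.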

How the data were processed

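RNA of RAW264.7 cells was hybridised to 1-colour Agilent lncRNA arrays, 1 per time point. The authors scanned them with Agilent Feature Extraction, version 11.0.1.1 per the file headers, whose processed signal is an intensity after background subtraction, and deposited log2 signals after quantile normalization in GeneSpring. The column medians are 6.05 in all 4 columns, and quantile normalization of the scanner intensities gave values within 0.03 of the deposited log2 values, so their scale is log2 and no gene was centred. The deposited log2 values were used, with flags and spot errors from the scanner files.

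Members, families, classes, probe sequences and coordinates come from the supplementary lists, held in part, with starts made 1-based, since 34 transcripts had a length equal to end minus start. The members and lists were chosen with earlier results of these data known. The text names every member, in full those of ribosomal proteins, those on all 4 arrays, those past the limit at all later times and the largest changes. The lists' fold columns and other columns of the authors' comparisons were not used. The alternatives were quantile normalization from the scanner files, scaling to the 75th percentile or to the median over probes detected everywhere, cyclic loess, probes limited to those both arrays detected, no floor and a 1.5-fold limit. Chosen after the data were seen were a normexp correction of the median signal (offset 50) and the omission of 5 probes that match other transcripts or lie on an unplaced scaffold, alone or with the 2 that resemble each other. The counting functions were tested on simulated data. The number of arrays limits the precision. Sequences around gene starts are from RefSeq, build GRCm38.p6. Python 3.11.15, numpy 2.4.6, pandas 2.3.3, matplotlib 3.10.9 and limma 3.58.1 in R 4.3.3 were used.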

Additional observations from a re-analysis of the deposited data

Results flagged for a closer look

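Bambi-ps1 and the ENSMUST00000181570 probe of Gpr137b-ps were past 2-fold in opposite directions at 72 h and 96 h, each against the same 0 h array, with 1 array per time point, and the difference was not tested. The log2 changes of the Bambi-ps1 probe, which resembles 38 windows around gene starts, were -0.65, 1.07 and -1.25 in time order. Those of the Gpr137b-ps probe were -0.71, -1.02 and 1.57, and at 72 h it was within the limit, with -0.96 and -0.95, under scaling to the 75th percentile and to the median.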

How the results depend on the processing

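Of 60 counts of pseudogene probes past the limit against 0 h under the alternatives, 43 were within 1.5 times the reported count. With a 1.5-fold limit 19 probes were higher at 24 h and 19 at 72 h, and 8 were lower at 24 h and 4 at 72 h. Of all probes, 4684 of 39289 at 24 h and 5339 of 39555 at 72 h were then higher, and 4969 and 5118 were lower. With probes limited to those both arrays detected 4, 3 and 13 were higher at 24, 72 and 96 h. Without a floor 20 and 17 were higher at 24 and 72 h, and 7 were lower at 24 h. With normexp, added after seeing the data, 6, 6 and 10 were higher at 24, 72 and 96 h and 0 were lower at 72 h. The 1 probe lower at 72 h became 2 with scaling to the 75th percentile, with scaling to the median and with cyclic loess. Without Rps25-ps1, Bambi-ps1, Olfr75-ps1, the NR_003568 probe of Gpr137b-ps and Pisd-ps3, which is on an unplaced scaffold, also added later, 11, 8 and 21 were higher and 4, 1 and 4 lower. Without these 5 and without Vmn2r-ps73 and Vmn2r-ps83, 9, 7 and 20 were higher and 4, 1 and 4 lower. Of 90 changes of Rps25-ps1, Hspe1-ps2, Olfr260-ps1 and the Gpr137b-ps probes under the alternatives, 80 moved by less than the spot error and 10 by more. Of those past 2-fold in the deposited values, 0 reversed. With normexp the small changes of Olfr260-ps1 at 24 h and 72 h, -0.17 and -0.35, became 0.03 and 0.04. Leaving out the floor could not move these probes, since all arrays detected them. Quantile normalization from the scanner files repeats that of the authors, so the 80 overstates how stable the changes were. Among all probes past the limit at 72 h, the share that was higher was 45.0% in the deposited values, 33.2% with scaling to the 75th percentile and 34.4% with scaling to the median, and at 24 h it was 35.7% and, with normexp, 20.97%. The cause was not tested. Normexp on the mean signal, which was not used here, was not run, and no fit with the slide as a block could be had with 1 array per time point. No paired analysis was possible because each time point has 1 array. Single-array signals as low as 26.5 lie close to background, which limits these values.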
